A study of Mus musculus with 8 samples.

Results

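The cytoplasmic ribosomal protein genes encode the proteins that, together with ribosomal RNA, build the small (40S) and large (60S) subunits of the ribosome in the cytosol. They were taken as all probe sets whose single annotated symbol is Rps or Rpl with a number and an optional closing letter, or is Rpsa, Rplp0, Rplp1 or Rplp2; the S6 kinases and the mitochondrial ribosomal proteins were not among them, and the rule uses no measured value. Of 22626 probe sets on the array, 96 met this rule. They stood for 45 of the 12393 gene symbols that have a probe set of their own, of which 21 belong to the 40S subunit, 22 to the 60S subunit outside the stalk, and 2, Rplp0 and Rplp2, to the P stalk, the arm of the 60S subunit that recruits elongation factors. Rplp1 was not among the 45, since its probe set carried several symbols. A probe set was tested if its signal was at or above the 40th percentile of its own array on at least 2 of the 8 arrays. This left 84 probe sets of 42 genes, 81 of them above that level on every array and none through arrays of 1 genotype only, while 12 probe sets were not tested.

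Signal was measured on 8 arrays of total RNA from mouse embryonic fibroblasts, connective tissue cells taken from E11 embryos and passaged through crisis, the stage after which an immortal culture grows out. The cells were wild type (WT) or Med23-/- knockout (KO), the latter without MED23, which is part of Mediator, a large complex through which DNA-bound factors reach RNA polymerase II. Cells of either genotype were kept in 0.5% serum for 16 h and harvested (starved), or were then brought to 20% fetal bovine serum (FBS) for 30 min (after serum), with 2 arrays in each of the 4 groups, so every group mean has n = 2. The study looked for genes whose serum response depends on MED23, and its text does not single out ribosomal proteins. The labels do not say whether replicates were separate cultures or how many embryos stand behind a genotype, so p-values measure only the spread between these samples, and the loss of MED23 and other differences between the cultures cannot be told apart.

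Most ribosomal proteins are needed in equal numbers, and in growing cells the mRNAs of ribosomal proteins are among the most abundant. In mammals these mRNAs begin with a C and a run of pyrimidines, the terminal oligopyrimidine (TOP) motif, through which mTOR signalling switches their translation on when growth factors arrive and off when they are withdrawn. That control acts on translation, which total RNA does not show. Their promoters are transcribed at high rates by RNA polymerase II, mostly lack a TATA box, and are known for sites of ETS-family factors such as GABP, of Sp1 and of YY1.

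Promoter sequences were looked up because most members moved together. RefSeq's promoter table for GRCm38.p6 held 39 of the 45 genes and gave 250 bases before to 50 after the start. Rps14, Rps29, Rpl8, Rpl7, Rps20 and Rps4l had no entry. The words searched were CCGGAAG (ETS), GGGCGG (GC box, the Sp1 site) and AAGATGGC (YY1), each on either strand of the whole window, and CTTTT or CTTTC or CTCTT as a pyrimidine start, on the gene's strand between 15 bases before and 20 after the start; the words can share letters. Printed are 100 bases before to 10 after the start of the genes with the largest differences (Rps6 and Rpl14), of Rpl22, whose probe sets moved in opposite directions (the first of 2 listed starts), of the brightest gene (Rpl41) and of a stalk gene (Rplp2). Capitals mark any of the words within these bases.
Rps6 (chr4:86857358-86857467, minus strand): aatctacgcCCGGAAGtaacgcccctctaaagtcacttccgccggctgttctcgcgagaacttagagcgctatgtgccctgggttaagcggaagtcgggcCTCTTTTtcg
Rpl14 (chr9:120571417-120571526, plus strand): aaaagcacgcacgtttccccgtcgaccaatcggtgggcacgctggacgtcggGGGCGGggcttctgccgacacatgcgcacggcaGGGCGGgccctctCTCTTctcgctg
Rpl22 (chr4:152325626-152325735, plus strand): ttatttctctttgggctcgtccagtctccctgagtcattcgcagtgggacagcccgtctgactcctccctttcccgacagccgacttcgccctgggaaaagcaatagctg
Rpl41 (chr10:128549159-128549268, minus strand): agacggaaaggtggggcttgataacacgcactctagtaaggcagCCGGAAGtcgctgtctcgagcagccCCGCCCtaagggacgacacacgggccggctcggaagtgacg
Rplp2 (chr7:141447551-141447660, plus strand): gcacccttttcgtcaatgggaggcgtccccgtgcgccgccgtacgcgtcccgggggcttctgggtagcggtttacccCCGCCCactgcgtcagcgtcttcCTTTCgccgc
The ETS word occurred in 20 of the 39 promoters (51.3%), against 9.93% of the 27025 genes in the table, and the pyrimidine start in 16 (41.0%), against 13.4%. The GC box was in 21 (53.8%, against 38.2%) and the YY1 word in 3 (7.69%, against 3.19%). The printed Rps6 promoter holds the ETS word and a pyrimidine start, that of Rpl14 holds 2 GC boxes and a pyrimidine start. The printed start of Rpl22 holds none of the words. A gene was counted if any of its listed starts held the word, and Rpl22 was counted for the YY1 word through its other start. Genes with the ETS word and genes without it both had a median difference between the genotypes in starved cells of 0.48 on the log2 scale, over 19 and 18 tested genes. With and without the GC box the medians were 0.47 and 0.48, and with and without the pyrimidine start 0.49 and 0.48. The 3 genes with the YY1 word had a median of -0.14 against 0.49 in the other 34. That median is the value of a dim Rps27 probe set, mean signal 1438, whose brighter shared probe set lay at 0.70. The YY1 group also holds Rpl22, whose probe sets disagree, so no direction is read from it.

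Across the series the arrays had been scaled to 1 trimmed mean, 2500.6 to 2500.8, and their median signals lay between 765.6 and 924.4. Signal of Med23 was 4901, 5410.5, 3595 and 3577 on the wild-type arrays and 28.0, 132.5, 34.6 and 36.9 on the knockout arrays, so the targeted gene went with the labels; the sources used here do not say whether its probes lie in the deleted part. Of 12 fibroblast markers 11 were tested, and in starved knockout cells 9 were higher and 1 was lower than in wild-type cells (7 and 2 after quantile normalization). Of all tested probe sets 22.8% were higher and 24.8% lower in this comparison. The summed signal of the fibroblast markers was 168535 to 189143 in wild-type and 291374 to 386737 in knockout cells. Summed epithelial, endothelial and haematopoietic markers stayed between 610.9 and 1609 on every array, and at least 2 of the 4 or 5 genes in each list lay below the 40th percentile on both arrays of every group. The difference in fibroblast markers moved with the difference in ribosomal protein genes, and its part in the results was not tested.

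In starved cells most ribosomal protein genes read higher in the knockout. By limma's moderated test with Benjamini-Hochberg adjustment over all 14947 probe sets tested, 64 of the 84 ribosomal protein probe sets were higher in knockout cells, 0 were lower and 20 did not pass; over all probe sets 47.6% passed, 22.8% higher and 24.8% lower. The median difference of the 84 was 0.52 on the log2 scale (1.43-fold), against -0.01 over all tested. The arrays of the genotypes did not overlap for 75 probe sets that were higher and 2 that were lower, where 36% of all tested probe sets were apart upwards and 37.3% downwards. Taken by the brightest probe set of each gene, 33 of 42 genes were higher, with a median of 0.48. The size followed the scaling. After quantile normalization, which gives every array the same distribution of values and so takes away a shift common to the brightest probe sets, 32 of the 84 were higher and 1 was lower, with a median of 0.20, and 12 lay below 0 where 5 had before. After centring each array on its median the same 64 probe sets were called higher, with a median of 0.56.

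**Figure D1:**
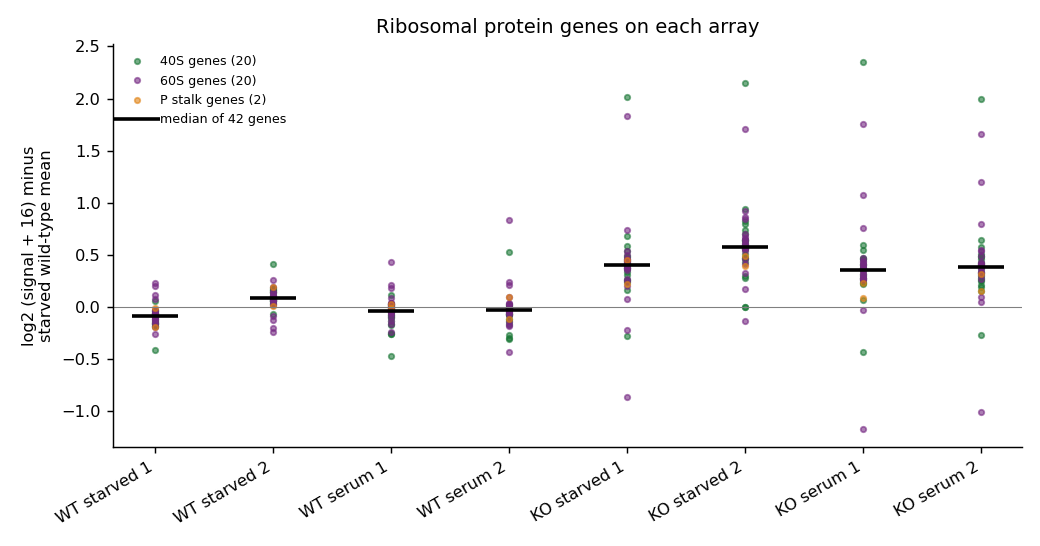
Log2 of signal plus 16 of the brightest probe set of each of 42 tested ribosomal protein genes on each of the 8 arrays, minus the gene's mean on the 2 starved wild-type arrays, with 1 point per gene coloured by subunit and black bars at the median of the genes. The medians of all 4 knockout arrays lie above those of the 4 wild-type arrays at the deposited scaling, and Rps6 and Rpl14 stand apart at the top.

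The 40S subunit, which decodes the mRNA, had 34 of 44 probe sets higher and 0 lower in starved knockout cells, with a median of 0.54. Rps9, a protein near the mRNA entry site, read 26321 and 28495 in starved wild-type cells and 43915 and 52751 in starved knockout cells. It was higher by 0.81 ± 0.109 (SE) on the log2 scale, 1.76-fold, with limma adjusted p = 0.000199. The probe sets of Rps9 did not all agree. A dim one, mean signal 1062, lay at -0.31 ± 0.182 and did not pass (adjusted p = 0.191). Rps29, a small zinc-binding protein, went from 33026 and 37207 to 52801 and 61026, a difference of 0.70 ± 0.101 (adjusted p = 0.000316). On the brightest probe set of either gene the knockout arrays lay well above the wild-type arrays. Rps24 was higher by 0.62 ± 0.13 (adjusted p = 0.00316), with 30619 and 33350 against 42387 and 56562. Rpsa, which is also known as the laminin receptor precursor, read 42957 and 55418 against 65270 and 81657 and was higher by 0.58 ± 0.135 (adjusted p = 0.00532). After quantile normalization these lay at 0.50 for Rps9, 0.29 for Rps29, 0.23 for Rps24 and 0.12 for Rpsa, of which Rpsa no longer passed (adjusted p = 0.191). Rps28 and Rps2, both among the 5 brightest genes, were higher by 0.40 and 0.30 at the deposited scaling (adjusted p = 0.00421 and 0.0451), but lay at -0.04 and -0.16 after quantile normalization and so have no settled direction.

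The 60S subunit, which forms the peptide bond, had 29 of 38 probe sets higher and 0 lower in starved knockout cells, with a median of 0.50. Rpl37a, a zinc-binding protein of the 60S subunit, read 36004 and 40746 in starved wild-type cells and 63860 and 69795 in starved knockout cells. That was 0.80 ± 0.0937 higher, 1.74-fold (adjusted p = 7.97e-05), and 0.35 after quantile normalization. Rpl37, another small zinc-binding member, read 4907 and 3721 against 5895 and 8123, a difference of 0.69 ± 0.173 (adjusted p = 0.00793), and 0.75 after quantile normalization (adjusted p = 0.00651). Rpl10a, a protein of the L1 stalk where spent tRNA leaves, read 37745 and 41038 against 53712 and 70965, a difference of 0.65 ± 0.124 (adjusted p = 0.00177). Rpl7a went from 42525 and 45910.3 to 62514 and 70567, a difference of 0.59 ± 0.0948 (adjusted p = 0.000626), and no array of the genotypes overlapped. After quantile normalization Rpl10a lay at 0.21 (adjusted p = 0.0452) and Rpl7a at 0.16, which did not pass (adjusted p = 0.0727). Among the brightest, Rpl4 was higher by 0.49 ± 0.0956 (adjusted p = 0.00204). Rpl41, which encodes a very short basic peptide and was the brightest member with a mean signal of 74322, was higher by 0.45 ± 0.121 (adjusted p = 0.0124). After quantile normalization Rpl4 lay at 0.08 and Rpl41 at 0.01, and neither passed (adjusted p = 0.307 and 0.879).

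Of the P stalk genes Rplp2 passed in starved cells and Rplp0 in neither state. Rplp2, an acidic stalk protein, read 44567 and 45090.1 in starved wild-type cells and 61151 and 63006 in starved knockout cells, 0.47 ± 0.0834 higher (adjusted p = 0.00112). After serum it read 45793 and 47916 against 52519 and 56034, and the difference of 0.21 ± 0.0834 did not pass (adjusted p = 0.0569). Rplp0, the protein that anchors the stalk, had differences of 0.31 ± 0.126 and 0.18 ± 0.126 that did not pass in either state (adjusted p = 0.0681 and 0.257). After quantile normalization Rplp0 lay at -0.11 and -0.14, and Rplp2 at -0.09 after serum. The probe set of Rplp1, which it shares with other symbols, was higher by 0.56 in starved cells and 0.45 after serum, and both passed.

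After serum most members again read higher in the knockout; the levels come from arrays other than those of the starved comparison, while the model's error is shared by all 8. Of 84 probe sets 61 were higher in knockout cells, 2 were lower and 21 did not pass, where 50.2% of all tested probe sets passed, 22.7% higher and 27.5% lower. The median was 0.44 (1.36-fold) against -0.07 over all tested, and arrays did not overlap for 71 probe sets that were higher and 3 that were lower, where 35.9% of all were apart upwards and 42.3% downwards. By brightest probe set, 31 of 42 genes were higher and 1 was lower, with a median of 0.38. The 40S median was 0.50 with 34 of 44 higher and 1 lower, and the 60S median 0.44 with 27 of 38 higher and 1 lower. In both states together, 57 of the 84 probe sets were called higher, and 28 of 42 genes by their brightest probe set. The share of all tested probe sets called higher in both states is not given here, so this joint count stands without a base rate. Quantile normalization left 41 higher and 1 lower after serum with a median of 0.25, and median centring, which moved the median of all probe sets by over 0.1, to 0.09, gave 68 higher, 1 lower and a median of 0.61. The count of 63 calls fell to 39 without the second stimulated knockout array.

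The order of genes shifted in part between the states. Rpl37 followed Rps6 and Rpl14 among the genes higher after serum, with 4249 and 4368 on wild-type arrays and 9024 and 9852 on knockout arrays. It was higher by 1.13 ± 0.173, 2.18-fold (adjusted p = 0.000446), on a probe set with a mean signal of 6267. The 3 tested probe sets that Rpl37 shares with other symbols did not agree. They ranged from -0.33 to 1.08 after serum and from 0.07 to 0.52 in starved cells, with 2 called higher in either state. Rpl37a followed at 0.94 ± 0.0937 (adjusted p = 2.62e-05), Rps9 at 0.69 ± 0.109 and Rps29 at 0.64 ± 0.101. Rps14, a 40S platform protein known for its place in the 5q deletion syndrome of humans, read 32201 and 35095 against 49867 and 54170.1, 0.63 ± 0.0902 higher (adjusted p = 0.000291). Rps19, the protein most often mutated in human Diamond-Blackfan anaemia, read 28560.1 and 24400 against 41789 and 38652 and was higher by 0.61 ± 0.121 (adjusted p = 0.00219). In starved cells the Rps19 arrays lay closer, at 27066 and 33387 against 35543 and 36947, and its difference of 0.27 ± 0.121 did not pass (adjusted p = 0.0928). Rps20 and Rpl7 were higher after serum by 0.56 ± 0.0949 and 0.55 ± 0.0967 (adjusted p = 0.000808 and 0.00098). Rpl41, at 0.27, and Rps2, at 0.13, passed in starved cells and not after serum (adjusted p = 0.0869 and 0.352); no member passed the interaction test of a change between the states.

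The single-symbol probe sets of Rps6 and Rpl14 stood apart from the other members. Rps6 is the 40S protein that S6 kinases phosphorylate downstream of mTOR. Its brightest single-symbol probe set gave 2173 and 2785 for starved wild type, 9974 and 10979.9 for starved knockout, 1778 and 2001 in wild-type cells after serum, and 12594 and 9836 in knockout cells after serum. The knockout arrays were higher by 2.08 ± 0.162 (4.23-fold, adjusted p = 5.06e-06) in starved cells and by 2.55 ± 0.162 (5.86-fold, adjusted p = 1.39e-06) after serum. Rpl14, a 60S protein, read 753 and 1085 against 3258 and 2986 in starved cells, 1.77 ± 0.188 higher (3.41-fold, adjusted p = 4.21e-05). After serum it read 764 and 666 against 3091 and 2885, 2.04 ± 0.188 higher (4.11-fold, adjusted p = 1.6e-05). Neither is among the bright members, with mean signals of 6515 and 1936, and quantile normalization left Rps6 at 2.16 and 2.52 and Rpl14 at 1.84 and 2.15.

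Probe sets annotated to Rps6 together with the pseudogene Rps6-ps4 gave smaller differences. The brightest of them read 53672 and 67057 for starved wild type and 75503 and 87177 for starved knockout, with a mean signal of 68513. It was higher by 0.44 ± 0.115 (adjusted p = 0.0104) in starved cells, and its 0.25 ± 0.115 after serum did not pass (adjusted p = 0.0988). The 8 tested probe sets of this kind ranged from 0.40 to 1.06 in starved cells, where all 8 passed, and from 0.25 to 1.33 after serum, where 7 passed. For Rpl14 the 5 probe sets shared with Rpl14-ps1 ranged from 0.97 to 1.73 in starved cells and from 1.09 to 1.64 after serum, and all 5 passed in both states. The brightest of these read 21116 and 21709 in starved wild-type against 35346 and 50016 in starved knockout cells. All tested probe sets of Rps6 and of Rpl14 thus lay above 0 in both states, with sizes that differed between probe sets of either gene, and the files do not tell transcripts of these genes and of their pseudogenes apart.

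**Figure D2:**
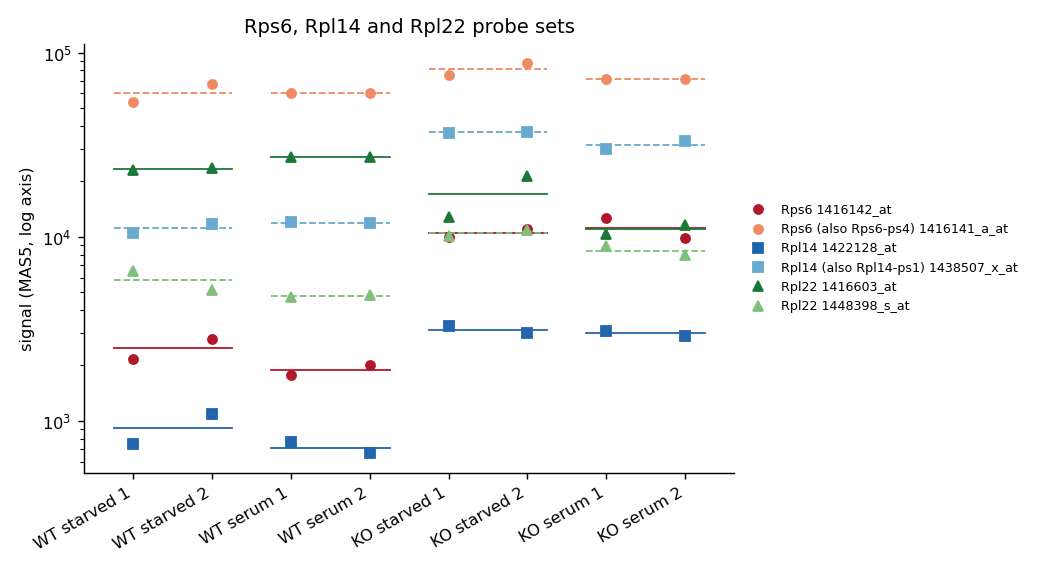
Signal on a log axis on each of the 8 arrays for single-symbol probe sets of Rps6, Rpl14 and Rpl22 and for probe sets of Rps6 and Rpl14 that carry a pseudogene symbol too; lines mark group means (n = 2). Rps6 and Rpl14 are higher on the 4 knockout arrays, while the probe sets of Rpl22 part in opposite directions.

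Rpl22, a 60S protein that is dispensable for translation in mouse and binds RNA outside the ribosome, was the exception. Its brighter probe set, with a mean signal of 19559, read 22890 and 23636 for starved wild type and 12769 and 21258 for starved knockout. The difference of -0.50 ± 0.189 did not pass (adjusted p = 0.0525). It came mainly from starved knockout array 1, since array 2, at 21258, lay near the wild-type arrays. Leaving out array 2 gave -0.86, a value that rests on array 1 alone. After serum it read 26957 and 27043 in wild-type against 10370.1 and 11553 in knockout cells, -1.30 ± 0.189 (adjusted p = 0.000317), and the genotypes were far apart. The second probe set, with a mean signal of 7366, went the other way. It read 6496 and 5127 against 10128 and 10849 in starved cells, 0.86 ± 0.133 higher (adjusted p = 0.000479), and 4724 and 4828 against 8848 and 7930.4 after serum, 0.81 ± 0.133 higher (adjusted p = 0.000679). Since the probe sets disagree, no direction is given for the gene. Rpl22l1, the paralogue that is known in mouse to rise when Rpl22 is lost, was higher in knockout cells by 0.64 ± 0.112 (adjusted p = 0.00104) and 0.66 ± 0.112 (adjusted p = 0.000872), with 13046 and 14458 for starved wild type and 22656 and 20211 for starved knockout. Its symbol falls outside the naming rule.

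Single-symbol probe sets of a gene did not all lie on 1 side of 0 for Rps9, Rpl41 and Rps27l in starved cells and for Rps9 and Rpl35 after serum, besides Rpl22. Of 18 genes with over 1 probe set tested, all probe sets lay above 0 in 14 genes in starved cells and in 15 after serum. Rps9 had a dim probe set, mean signal 1062, that was lower after serum by -0.49 ± 0.182 (adjusted p = 0.0471), with 1103 and 1169 for wild type and 818 and 793 for knockout, and whose difference did not pass after quantile normalization. The other dim Rps9 probe set, mean signal 837, was higher by 0.94 and 1.11, as was the bright one described above. Rpl35, a protein next to the exit of the nascent chain, had 5 bright probe sets higher by 0.46 to 0.72 in starved cells and by 0.42 to 0.86 after serum, and a dim one at 0.55 and -0.45 that did not pass. In Rpl41 a dim probe set at -0.14, and in Rps27l 1 of 3 probe sets at -0.22, did not pass in starved cells (adjusted p = 0.682 and 0.255). Rps10, a 40S beak protein, had all 6 probe sets above 0 and 5 bright probe sets higher by 0.37 to 1.07 and 0.40 to 1.01, of which the one at 0.37 lay at -0.05 after quantile normalization. A dim Rps10 probe set at 0.28 and 0.04 did not pass in either state.

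Of the 84 tested probe sets, 14 passed in neither state, 9 of the 19 with a mean signal up to 10000 and 5 of the 65 above it. They were 1 probe set each of Rpl12, Rpl27a, Rpl35, Rpl39, Rplp0, Rps10, Rps20, Rps27, Rps28 and Rpl13a, and 2 each of Rpl41 and Rps27l. The single-symbol probe sets of Rpl27a (mean signal 731), Rps27 (1438) and Rpl39 (1640) gave starved differences of 0.06, -0.14 and 0.36 and differences after serum of 0.06, -0.49 and -0.17, none past the test. Brighter probe sets shared with other symbols read otherwise for Rps27 and Rpl27a. That of Rps27, shared with Rps27rt, had a mean signal of 41067 and was higher by 0.70 ± 0.131 (adjusted p = 0.00157) and 0.61 ± 0.131 (adjusted p = 0.00328). That of Rpl27a was higher by 0.69 and 0.52, and both passed. That of Rpl39, at 0.04 and 0.27, passed in neither state, and lay at -0.32 and -0.04 after quantile normalization. For Rpl12 the 2 shared probe sets, with mean signals of 43947 and 51198, were called higher in both states. They lay at 0.52 to 0.57 in starved cells and at 0.38 to 0.44 after serum. Of the paralogues, Rps27l, which p53 is known to induce, had a mean signal of 15500.4 on its brightest probe set and differences of 0.13 (adjusted p = 0.352) and 0.37 (adjusted p = 0.0177). Rpl3l, a form known from striated muscle, and Rpl39l, known from testis, averaged 39.9 and 49.1, and Rps4l, annotated here as a pseudogene, 12; all 3 were below the level for testing and are given no difference.

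Ribosomal proteins known to this array only through shared probe sets widened the picture. In all, 97 tested probe sets carried several symbols with 1 ribosomal protein gene among them, for 41 genes, 27 of which had no single-symbol probe set. In starved cells 83 were higher, 3 were lower and the median was 0.52, where 22.8% of all tested probe sets were higher and 24.8% lower. After serum 75 were higher and 1 was lower, with a median of 0.49, where 22.7% of all were higher and 27.5% lower. Quantile normalization left 42 higher and 4 lower in starved cells (median 0.14), and 49 higher and 2 lower after serum (median 0.28). Rpl36, Rpl29 and Rpl24 had all their probe sets called higher in both states, from 0.71 to 0.99, 0.50 to 0.83 and 0.68 to 1.61 in starved cells. Rpl5, which with Rpl11 and 5S rRNA binds Mdm2, had probe sets that disagreed. Its brightest was higher by 0.42 in starved cells (adjusted p = 0.0203) and did not pass after serum, while the other two were lower in starved cells by -0.96 and -0.55 (adjusted p = 0.00103 and 0.0163). These probe sets may also read pseudogene transcripts. Outside the naming rule, Fau, which encodes the 40S protein eS30 fused to a ubiquitin-like protein, was higher by 0.73 ± 0.105 (adjusted p = 0.000324) and 0.71 ± 0.105 (adjusted p = 0.000357). Rps3a1 was higher by 0.38 and 0.42 with both past the test, but lay at -0.06 in starved cells after quantile normalization. Rpl7l1, a nucleolar relative of Rpl7, was lower in starved cells by -0.39 ± 0.126 (adjusted p = 0.0263) and at 0.18 after serum did not pass.

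The members lie at the top of the signal range, which bears on how their differences are read. Of the 96 probe sets 65 had a mean signal over 10000, and 56 of these were called higher in starved knockout cells and 53 after serum, with medians of 0.52 and 0.46. Among the 1680 other tested probe sets over 10000, 530 were higher and 376 lower in starved cells, and 587 and 330 after serum, with medians of 0.06 and 0.12. These 1680 include ribosomal protein probe sets that carry several symbols. Without probe sets of either kind, the brightest 1477 had medians of 0.045 in starved cells and 0.097 after serum. In bins of mean signal from 10000 to 30000, 30000 to 45000 and above, the members' median was 0.41, 0.59 and 0.49 in starved cells and 0.45, 0.59 and 0.36 after serum. The 19 tested members up to 10000 had medians of 0.44 and 0.27, with 8 called higher in either state. Probe sets without a letter suffix, which by the naming of such arrays are the most specific, numbered 19 among those tested. Of these 7 were higher in starved cells (median 0.36), and 8 higher and 2 lower after serum (median 0.18). Over all tested probe sets 22.8% were higher in starved cells, and 22.7% were higher and 27.5% lower after serum. Suffix a, for probes shared by transcripts of a gene, gave 22 of 25 higher in starved cells (median 0.54) and suffix x, for probe sets with some cross-hybridising probes, 33 of 38 (median 0.56). The 2 members with suffix s were the brightest Rps9 probe set and the dimmer of the 2 Rpl22 probe sets. Brightness and suffix go together here, and their parts were not tested.

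**Figure D3:**
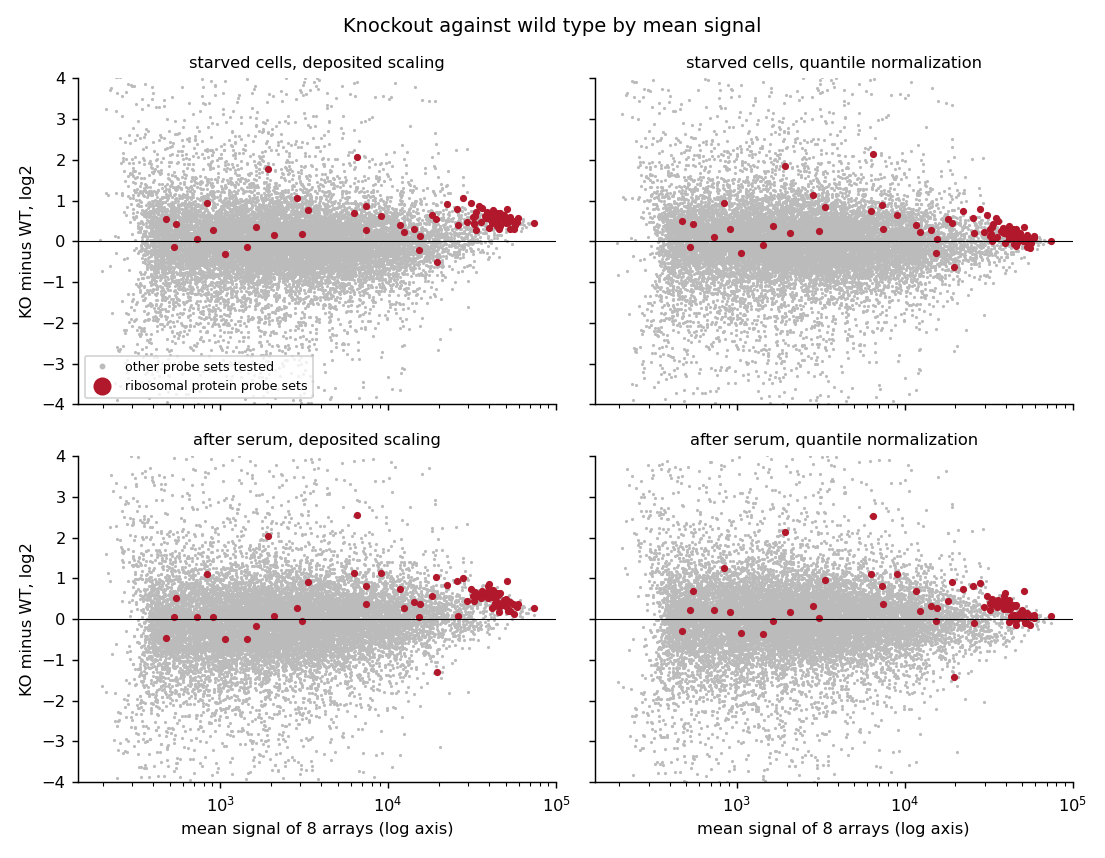
Difference between knockout and wild type on the log2 scale for each tested probe set against its mean signal over the 8 arrays (log axis), in starved cells (top) and after serum (bottom), at the deposited scaling (left) and after quantile normalization (right); grey points beyond 4 in either direction are not drawn. The red ribosomal protein points gather at the bright end above 0 on the left, with medians of 0.52 and 0.44, and move towards 0 on the right, with medians of 0.20 and 0.25, where 12 and 15 of 84 lie below 0.

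As a share of all signal on an array, the 96 probe sets held 3.09% and 3.36% in starved wild-type cells and 3.08% and 3.11% in wild-type cells after serum. In knockout cells they held 4.19% and 4.69% when starved and 4.08% and 4.17% after serum. All 4 knockout arrays were above all 4 wild-type arrays. The group means were 3.23% ± 0.191 (SD, n = 2) and 3.10% ± 0.0206 for wild type and 4.44% ± 0.355 and 4.12% ± 0.0605 for knockout, a ratio of knockout to wild type of 1.35, or 1.14 after quantile normalization. Between 19 and 22 of the 100 brightest probe sets of a wild-type array were members, and between 29 and 34 of a knockout array. The starved knockout arrays differed most from each other, with array 2 above array 1 by a median of 0.18 over the 84 tested members and for 67 of them; in starved wild-type cells array 2 was above array 1 by 0.12, and after serum the gaps were 0.01 and 0.03. Over all tested probe sets these gaps lay between -0.02 and 0.01. At this group size the smallest p that an exact permutation test of 1 value can give is 0.333, two-sided.

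Few ribosomal protein probe sets passed the test for a change with serum. In wild-type cells 1 of 84 probe sets rose and 0 fell, where 4.14% of all tested probe sets passed, 2.44% up and 1.7% down. At an unadjusted p under 0.05 there were 5 of the 84, against 2726 of all 14947. The median change was -0.05, as over all tested, and the arrays did not overlap for 9 probe sets that were higher after serum and 25 that were lower, where 20.5% and 29.8% of all were. In knockout cells 1 rose and 1 fell, where 23.1% of all passed, 9.33% up and 13.8% down. Of the 84, 10 had an unadjusted p under 0.05, against 5485 of all 14947. The arrays did not overlap for 6 that were higher and 35 that were lower, where 21.4% and 41.1% of all were. The median was -0.12 against -0.13 over all tested, and was 0.04 after median centring and -0.01 after quantile normalization. The probe set that rose in both genotypes was the dim one of Rps10. Its signal was 621 and 587 before and 1160.5 and 1096 after serum for wild type, a rise of 0.88 ± 0.198 on the log2 scale (adjusted p = 0.0347), and 704 and 767 before and 1350.4 and 997 after serum for knockout, a rise of 0.65 ± 0.198 (adjusted p = 0.0404). The 5 bright Rps10 probe sets did not pass in either genotype, and neither call held under every alternative. The fall in knockout cells was that of the brighter Rpl22 probe set, -0.59 ± 0.189 (adjusted p = 0.0483), in which starved knockout array 2 stood high; without it the change was -0.22 (adjusted p = 0.2), and after median centring -0.43 (adjusted p = 0.126). Without starved knockout array 1, 9 members were called in knockout cells.

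The serum response of no member passed the test of a difference between the genotypes. The interaction test called 0 of 84 probe sets by limma, where 2.69% of all tested probe sets passed. Of the 84, 4 had an unadjusted p under 0.05, against 2830 of all 14947. The median interaction was -0.05 against -0.06 over all tested, and 0.05 and 0.06 after quantile normalization and median centring. Without starved knockout array 1, 1 member was called.

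**Figure D4:**
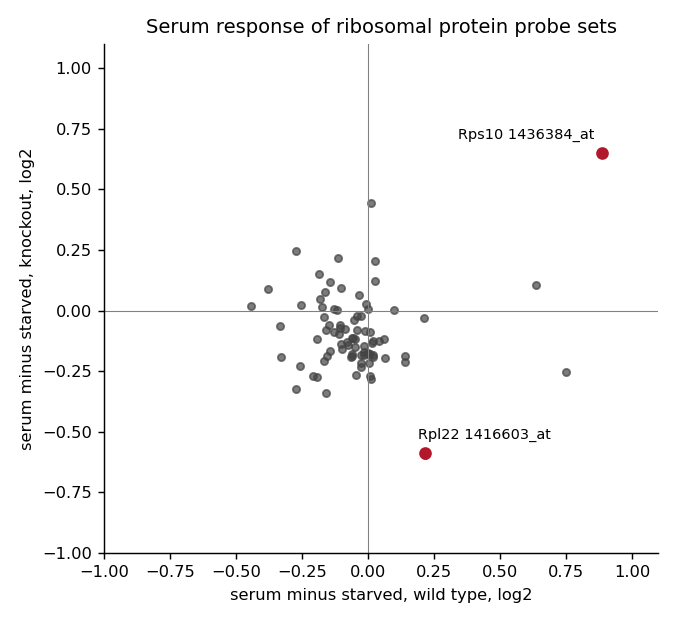
Change with serum on the log2 scale in wild-type (horizontal) and knockout cells (vertical) for each of the 84 tested ribosomal protein probe sets, with the Rps10 and Rpl22 probe sets called in either genotype in red. Nearly all points lie near the origin, with medians of -0.05 and -0.12.

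Other genes of the translation machinery were set beside the members, each by its brightest probe set. Translation factors and other proteins whose mRNAs also carry the TOP motif were higher in starved knockout cells in 19 of 19 cases, with a median of 0.55, and in 14 of 19 after serum, with a median of 0.44 and 0 lower. Eef1d, a subunit of the exchange factor for the elongation factor eEF1A, was higher by 0.92 and 0.94, Hnrnpa1, an RNA-binding protein, by 0.82 and 0.95, and Eif4b, a helper of the helicase eIF4A, by 0.75 and 0.78, all past the test. Eef2, the translocation factor, was higher by 0.47 ± 0.107 in starved cells (adjusted p = 0.00507), but at 0.14 after serum did not pass (adjusted p = 0.306) and was lower, at -0.17, after quantile normalization. Quantile normalization left 13 of 19 higher in starved cells, and 12 higher and 1 lower after serum. Vim is in this list and among the fibroblast markers too.

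Ribosome biogenesis factors, which process rRNA and assemble the subunits in the nucleolus, did not share this direction. Of 40 tested, 7 were higher and 14 lower in starved knockout cells (median -0.26), and 8 were higher and 16 lower after serum (median -0.17; 9 and 10 after quantile normalization, 11 and 9 after median centring). Pno1, a partner of Nob1 in the maturation of 18S rRNA, was lower by -1.49 ± 0.18 (adjusted p = 0.0001). Eif6, which keeps 60S subunits from joining too early, was lower by -1.03 ± 0.138 (adjusted p = 0.00019). Nhp2, of the pseudouridine-guiding particles, was lower by -1.02 ± 0.152 and Bop1, a 60S assembly factor, by -0.59 ± 0.125. Imp3, of the small subunit processome, went the other way at 1.56 ± 0.152 (adjusted p = 2.32e-05). Serum raised 8 and lowered 5 of the 40 in knockout cells, where it raised 9.33% and lowered 13.8% of all tested probe sets. In wild-type cells 0 passed, and 11 of the 40 had an unadjusted p under 0.05, against 2726 of all 14947. In knockout cells Ddx21, a nucleolar helicase, rose by 1.89 ± 0.165 (adjusted p = 4.72e-05), Nmd3, the export adaptor of the 60S subunit, by 1.68 ± 0.119 and Nolc1 by 1.38 ± 0.163.

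Genes of the signalling that acts on TOP mRNAs and on S6, among them mTOR and its partners and Myc, were 1 higher and 9 lower of 20 in starved knockout cells (median -0.36), and 3 higher and 7 lower after serum (median -0.15; 2 and 7 after quantile normalization, 6 and 5 after median centring). Mtor was lower by -0.71 ± 0.123 (adjusted p = 0.000986) and -0.83 ± 0.123 (adjusted p = 0.000369). Eif4ebp1, the translational repressor that mTOR switches off, was lower by -1.08 ± 0.151 and -1.24 ± 0.151, and Rictor, of mTOR complex 2, by -0.82 ± 0.219 and -1.66 ± 0.219, all past the test. Myc rose with serum by 0.59 ± 0.114 in wild-type and 1.73 ± 0.114 in knockout cells. Of 74 mitochondrial ribosomal protein genes, which build the separate ribosome of mitochondria, 11 were higher and 10 lower in starved knockout cells (median -0.03), and 8 were higher and 15 lower after serum (median -0.17; 13 and 9 after quantile normalization, 16 and 8 after median centring). For both of these lists the shares over all tested probe sets were 22.8% higher and 24.8% lower in starved cells, and 22.7% and 27.5% after serum. Mrpl48 was higher by 1.69 and 1.73, Mrps6 by 1.09 and 1.08, and Mrpl32 was lower by -1.14 in starved cells. With serum 13 of the 74 fell in knockout cells, where 13.8% of all tested probe sets did, and 1, Mrpl15, in wild-type cells. The direction shared by most cytoplasmic ribosomal protein genes was thus also seen in the TOP list, and not in the counts of these other lists; the difference between lists was not tested.

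**Figure D5:**
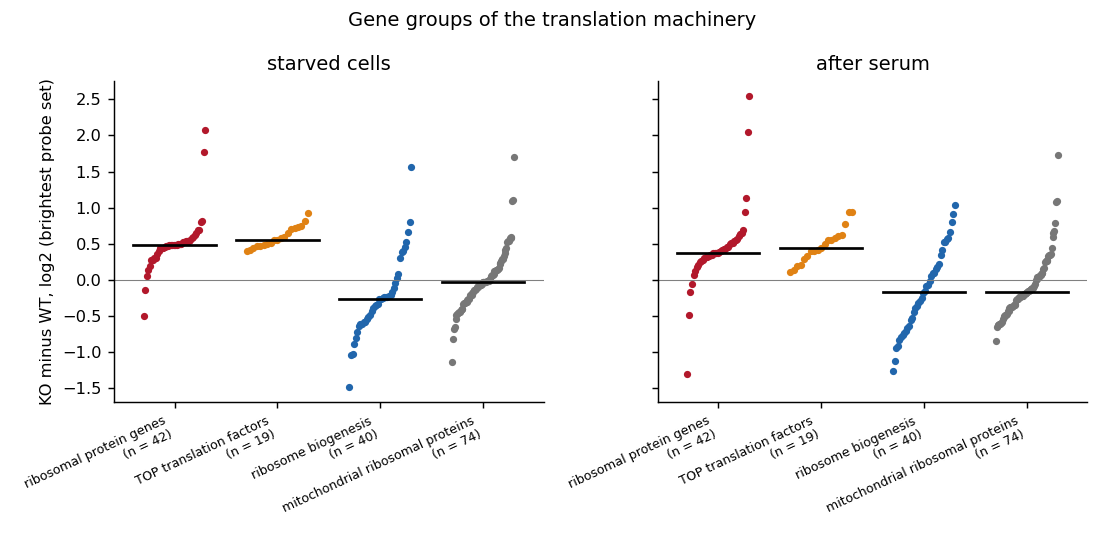
Difference between knockout and wild type on the log2 scale, by the brightest probe set, for 42 ribosomal protein genes, 19 TOP translation factors, 40 ribosome biogenesis factors and 74 mitochondrial ribosomal proteins, in starved cells (left) and after serum (right), with black bars at the medians. At the deposited scaling the first 2 groups lie mostly above 0, and the other 2 lie on either side of it.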

How the data were processed

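Total RNA of 8 samples was hybridised to 1-colour arrays. The deposited values are linear signal intensity; the submitters' processing notes name MAS5 (version not given), and each array has the same trimmed mean. MAS5 leaves the distributions of bright probe sets free to differ between arrays. Genes come from GEO's platform annotation: of 22626 probe sets (64 controls left out), 20380 had 1 symbol, 691 several and 1555 none. Computed here were log2(signal + 16) and, with limma 3.58.1 in R 4.3.3, 1 model with 4 group means over 8 arrays and a mean-variance trend, for 5 comparisons; adjusted p is Benjamini-Hochberg over 14947 tested probe sets, called under 0.05, and ± is the standard error of the model unless SD is written. Folds are on the log2(signal + 16) scale and understate changes of dim probe sets. The test was checked on simulated data. Named are, by the brightest probe set of a gene, up to 10 called genes in each direction with the largest difference and no overlap, the 5 brightest and 5 dimmest, paralogues, genes with known roles or disagreeing probe sets, ribosomal proteins outside the symbol rule, and up to 4 of each companion list by p; others were chosen after their values were seen. Members and lists were chosen with earlier results of these data known. Signals carry no counts, so the number of arrays limits the precision. Alternatives were the pseudocount, quantile normalization, median centring, the filter, the model, the replicate block, 1 probe set per gene, suffixes and leaving out each array.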

Additional observations from a re-analysis of the deposited data

Results flagged for a closer look

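For some members both arrays moved one way with serum in wild-type cells and the other way in knockout cells. The serum response in knockout minus that in wild-type cells was -0.80 for the brighter Rpl22 probe set (limma adjusted p = 0.15), -0.33 for 1 Rpl13a probe set (0.27), 0.33 and 0.52 for 2 probe sets of Rpl27 (0.23 and 0.157) and -0.26 for Rplp2 (0.271) on the log2 scale, and none of these differences passed the test.

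Among the companion genes, a difference in serum response between the genotypes passed the test for Nmd3 (1.44, adjusted p = 0.00271), Myc (1.15, 0.00569), Ddx21 (1.37, 0.0163) and Max, the dimerisation partner of Myc (2.39, 0.0302), each with the higher value in knockout cells.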

How the results depend on the processing

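The higher signal of ribosomal protein probe sets in knockout cells kept its direction as a median in both states under every alternative, but its size and count of calls depended on the scaling and on the probe sets used. In starved cells the 64 calls became 33 after quantile normalization, 34 with 1 probe set per gene, 7 with unsuffixed probe sets and 150 with several-symbol probe sets (added after seeing the data), and the median 0.20 after quantile normalization and 0.36 unsuffixed. After serum the 63 calls became 33 with 1 probe set per gene, 10 unsuffixed and 139 with several symbols, and the median 0.25 after quantile normalization, 0.61 after centring and 0.18 unsuffixed. With the main adjustment over all tested probe sets, the brightest probe set of each gene gave 33 calls in starved cells. After serum it gave 31 higher and 1 lower. The ratio of signal shares of 1.35 was 1.14 after quantile normalization and 1.23 unsuffixed. Fewer probe sets enter some of these counts by construction; otherwise the cause was not tested. Of the serum calls, the 1 in wild-type cells was lost (0) with 1 probe set per gene, the 60th percentile filter, no filter and members over 10000 only, and became 2 after quantile normalization. The 2 in knockout cells became 1 with 1 probe set per gene, the 60th percentile filter, members over 10000, no trend or a pseudocount of 1, became 0 with no filter or a fit to the groups compared, and became 5 with several symbols, which also gave 1 interaction call. The median in knockout cells was 0.039 after centring and -0.010 after quantile normalization, and the median interaction 0.065 and 0.054. Leaving out each array in turn gave 54 to 65 calls and medians of 0.43 to 0.61 in starved cells, 39 to 67 and 0.43 to 0.47 after serum, 0 to 9 and -0.22 to -0.038 for serum in knockout cells, 0 to 1 and -0.13 to -0.0091 in wild-type cells, and 0 to 1 and -0.16 to 0.022 for the interaction; the lone array left is assumed to vary like the other groups. After quantile normalization signs turned for 7 members in starved cells and 11 after serum, and among the genes named these were Rps28 (-0.035), Rps2 (-0.16), Rplp0 (-0.11) and 1 Rps10 probe set (-0.053) in starved cells and Rps2 (-0.15), Rplp2 (-0.091) and Rplp0 (-0.14) after serum. On leaving out 1 array signs turned for dim probe sets, which ranged from -0.55 to 0.27 (Rps27, starved), -0.22 to 0.33 (Rpl27a, starved, also -0.064), -0.00545 to 0.13 (Rpl27a after serum, also -0.00173), -0.37 to 0.039 (Rpl39 after serum) and -0.17 to 0.26 (Rps10 after serum). The labels do not say whether the set numbers shared by the groups pair the samples. The correlation of set 2 minus set 1 was 0.21 between the wild-type groups and 0.10 between the knockout groups. Between groups of different genotype it ran from -0.03 to 0.006. A pairing within a genotype was not modelled. The replicate block was 1 term for both genotypes. With it 66 and 64 members were called in the genotype comparisons, 3 and 1 for serum in knockout and wild-type cells and 0 for the interaction. The fit to the groups compared gives no interaction.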
